A study of Mus musculus with 4 samples.

Results

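Crebbp and Ep300 are the mouse genes of CREB-binding protein and p300, a pair of closely related lysine acetyltransferases. Their peaks were taken as every entry of the deposited N6-methyladenosine (m6A) peak lists whose gene symbol was Crebbp or Ep300. These 2 genes, of 9949 with a listed peak, held 19 of the 46417 listed peaks, 8 of them on Crebbp and 11 on Ep300. The lists came from embryonic stem cells labelled as strain C57BL/6N: 2 Mettl5-/- libraries and 2 wild-type libraries, with no treatment or time point separating them. Mettl5 is an RNA methyltransferase whose known target is an adenosine of 18S ribosomal RNA. In MeRIP-seq, the assay used, RNA fragments pulled down by an m6A antibody are sequenced, and a peak is a stretch of transcript where they are enriched. The authors listed peaks for each library on its own. The labels do not say how Mettl5 was disrupted, nor whether libraries of a genotype came from separate clones or cultures, so differences between them could be technical.

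Both proteins are coactivators that transcription factors bring to promoters and enhancers, where they acetylate histones and other proteins. Acetylation of lysine 27 of histone H3 by this pair marks active enhancers in stem cells. In messenger RNA the m6A mark is placed by the Mettl3-Mettl14 complex, and it is known to be dense around stop codons and in long internal exons. Mettl5 is not part of that complex.

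The Mettl5-/- lists held 12699 and 10821 peaks and the wild-type lists 11696 and 11201. Mettl5 had no listed peak in any of the 4 libraries, so the genotype labels could not be checked from the lists. Of 10 stem cell markers, 7 had a peak, 6 of them in all 4 lists, and Nanog, Zfp42 and Dppa5a had none. Of markers of other cells, a peak was found for 4 of 6 neural and 3 of 6 mesoderm and endoderm genes. It was also found for 2 of 6 feeder fibroblast and 2 of 4 trophoblast genes. Those with a peak in all 4 lists numbered 2, 2, 2 and 1 in the same order. Over all genes with a peak, the share in all 4 lists was 57.1%, and with so few markers these counts do not tell cell types apart. A peak list shows where enrichment was called, not how much RNA a gene made, and no read depth was given with the lists, so a missing peak cannot be told apart from too few reads.

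Each gene carried a long, strong peak over coding sequence near its 3' end in every library. Ep300 had a strong second peak at its 5' end in every library, where Crebbp had none. All other peaks of the pair, 7 in number, were weak and lay in the 3' untranslated region (UTR), and the libraries that lacked or added a peak differed among these. At the level of genes, both were present in all 4 lists, as were 57.1% of all genes with a peak. Joined wherever their exon blocks shared 1 bp or more, the 19 peaks fell into 5 regions, 3 with a peak in all 4 lists, against 42.5% of all regions.

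**Figure D1:**
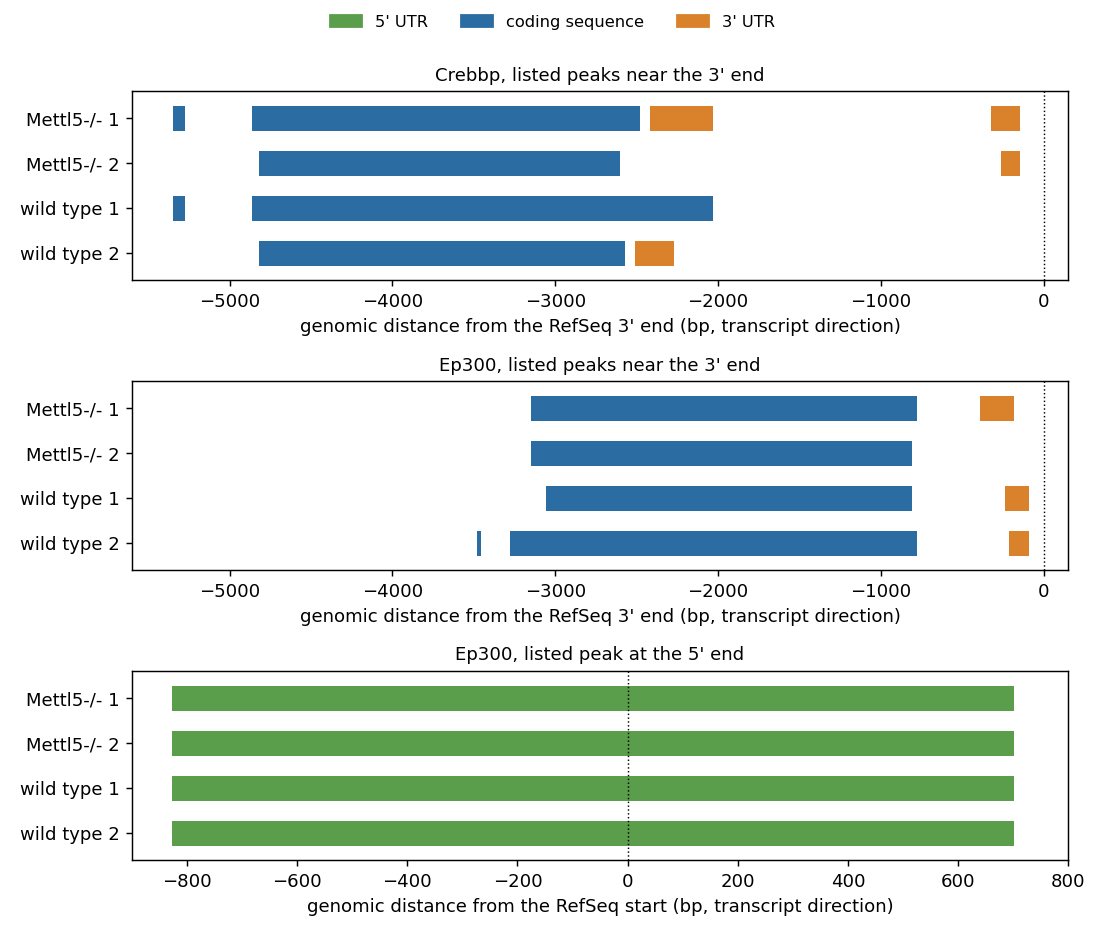
Listed peaks of Crebbp and Ep300 by library, with 2 Mettl5-/- rows above 2 wild-type rows; bars are exon blocks coloured by the authors' transcript class, and the horizontal axis is genomic distance in bp from the RefSeq 3' end (upper panels) or RefSeq start (lowest panel). The coding-sequence bars and the 5' UTR bar are present in all 4 rows, and the 3' UTR bars differ between rows.

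The 5' UTR peak of Ep300 overlaps the RefSeq start of the gene, and 29 bases of it are shown because they hold a form of the m6A consensus inside the peak of every library. The RefSeq promoter window, from 250 bases before to 50 after an annotated transcript start, was chr15:81585964-81586263 on the plus strand (GRCm38.p6, whose chromosomes are those of mm10). It lay within the peak over all of its 300 bases. The letters GGACA, a frequent form of the m6A consensus, were searched on both strands, together with the forms GGACC and also GGACT. Only this window was searched, not the rest of the peak. Its transcribed strand held 1 match, 14 bases after the RefSeq start of the gene. It is given here with its surroundings, chr15:81586211-81586239, plus strand, 29 bases, with the match in capitals.
Ep300 start: tgagaaggaggaGGACAgcgccgaggagg
The opposite strand held 1 match as well. Of 32851 RefSeq windows of this length, 60.2% held at least 1 of these letters on the transcribed strand and 60.4% on the opposite strand, so a match in such a window is common. The Crebbp window, chr16:4213355-4213654 on the minus strand, held no match on either strand and no listed peak. This window lay wholly inside the gene, whose RefSeq limit at the 5' end is position 4213957. The Ep300 window instead spans the RefSeq start of its gene, so the 2 windows are not alike in position. The match is a description of the letters and does not locate a methylated base.

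The strongest Crebbp peak covered coding sequence on chromosome 16 (mm10, minus strand; Ensembl gene ENSMUSG00000022521). It ran over positions 4083814 to 4086681 in Mettl5-/- 1 and 4083934 to 4086151 in Mettl5-/- 2, against 4083365 to 4086681 in wild type 1 and 4083904 to 4086151 in wild type 2. Its exonic length was 2457 and 2218 bp in the Mettl5-/- lists and 2906 and 2248 bp in the wild-type lists. The peaks of all 4 libraries shared 2218 bp, which is the whole of the Mettl5-/- 2 peak. In Mettl5-/- 1 and wild type 1, a crossed pair, the peak also held a block of 72 bp across an intron, at the same positions (4086610 to 4086681) in both. In the other libraries it was 1 unbroken block, so it lay within a single exon. Carboxy-terminal parts of CREB-binding protein and p300 bind many transcription factors and other coactivators.

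The strongest Ep300 peak also lay in coding sequence, on chromosome 15 (mm10, plus strand; Ensembl gene ENSMUSG00000055024). Its limits were 81648929 to 81651297 in Mettl5-/- 1 and 81648929 to 81651267 in Mettl5-/- 2, against 81649019 to 81651267 in wild type 1 and 81648598 to 81651297 in wild type 2. Exonic lengths were 2369 and 2339 bp in the Mettl5-/- lists and 2249 and 2519 bp in the wild-type lists. All 4 peaks shared 2249 bp, the whole of the wild type 1 peak. Wild type 2 alone added a block of 23 bp across an intron, at positions 81648598 to 81648620.

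These coding-sequence peaks were among the long ones of their class. The median coding-sequence peak was 419 and 421 bp long in the Mettl5-/- lists and 445 and 448 bp in the wild-type lists. The Crebbp and Ep300 peaks lay between the 97.2th and 99.0th percentile of exonic length among coding-sequence peaks of their own list. Both genes had a similar layout, with the peak close to the 3' end of the gene. The end nearest the RefSeq 3' end was 780 to 810 bp away in Ep300 and 2031 to 2600 bp in Crebbp.

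Strength was ranked within each list by the authors' p-value, 100 being the strongest peak. The Crebbp coding-sequence peak stood at the 96.2th and 93.5th percentile in the Mettl5-/- lists and at the 95.4th and 95.5th in the wild-type lists. The mean was 94.8 ± 1.88 in Mettl5-/- and 95.5 ± 0.0959 in wild type (SD, n = 2 each). The wild-type values fell between those of the Mettl5-/- libraries, so the groups overlapped. The difference, Mettl5-/- minus wild type, was -0.63 percentile points, smaller than the spread between the Mettl5-/- libraries (exact permutation test, two-sided, p = 1). With 2 libraries against 2 such a test cannot give a p under 0.333.

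For Ep300 the coding-sequence peak stood at the 96.2th and 94.4th percentile in the Mettl5-/- lists and at the 97.0th and 96.5th in the wild-type lists. Both Mettl5-/- values were below both wild-type values. The means were 95.3 ± 1.32 in Mettl5-/- and 96.7 ± 0.310 in wild type (SD, n = 2 each), a difference of -1.44 points (exact permutation test, two-sided, p = 0.333, the smallest possible). The order was not kept by the other measure of strength. Ranked by fold enrichment, the peak stood at the 99.9th and 99.4th percentile in Mettl5-/- and at the 99.6th and 98.0th in wild type, a mean difference of 0.853 points the other way.

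**Figure D2:**
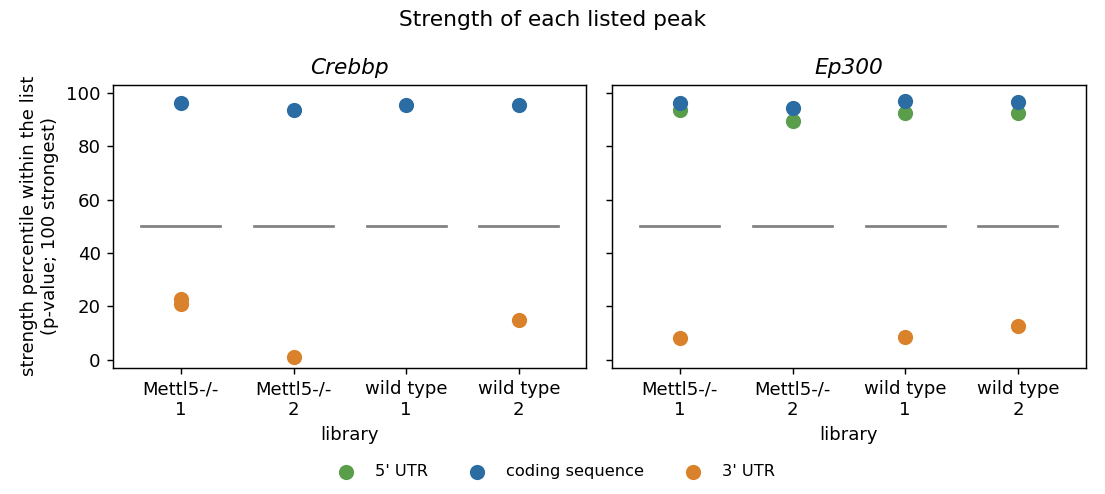
Strength of every listed Crebbp (left) and Ep300 (right) peak, as the percentile of its p-value within its own list, by library with Mettl5-/- on the left of wild type; grey bars mark the middle of each list. Coding-sequence peaks lie between 93.5 and 97.0, the Ep300 5' UTR peak between 89.4 and 93.4 and the 3' UTR peaks between 0.878 and 22.8.

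The authors' fold enrichment, a ratio to a background the lists do not name, is each peak's own value and ranks peaks within 1 list. For Crebbp it was 2030 and 257 in the Mettl5-/- lists and 1110 and 584 in the wild-type lists. In Mettl5-/- 1 this was the 15th highest fold of the list, and in Mettl5-/- 2 the 979th. The Crebbp percentiles by fold were 99.9 and 90.9 in Mettl5-/- and 99.0 and 96.8 in wild type, so Mettl5-/- 2 had the lowest and Mettl5-/- 1 the highest. For Ep300 the fold was 2220 and 959 in Mettl5-/- and 1460 and 724 in wild type, which ranked 11th and 65th in the Mettl5-/- lists and 45th and 224th in the wild-type lists. The median fold of all peaks was 19.2 and 24.9 in the Mettl5-/- lists and 22.4 and 26.6 in the wild-type lists.

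**Figure D3:**
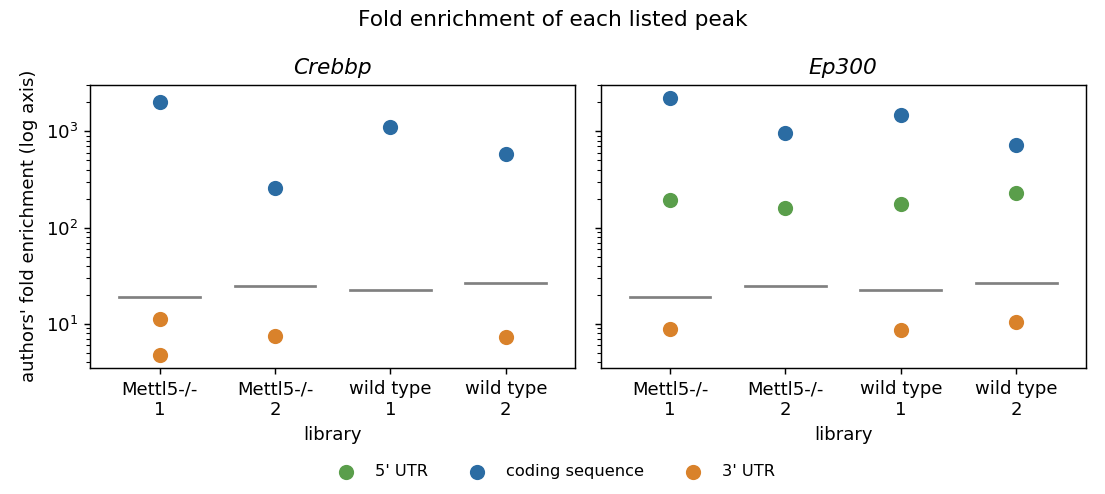
The authors' fold enrichment (log axis) of every listed Crebbp (left) and Ep300 (right) peak by library, Mettl5-/- left of wild type; grey bars are the median fold of each list, and folds rank peaks within a list only. Coding-sequence peaks and the Ep300 5' UTR peak lie above the bars, from 160 to 2220, and the 3' UTR peaks below them, from 4.81 to 11.2.

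The 5' UTR peak of Ep300 had the same limits in all 4 libraries, positions 81585381 to 81586910 of chromosome 15, a single block of 1530 bp. By the RefSeq start, 828 bp of it lay before the gene and 702 bp from the start on. The authors' lists place it in the 5' UTR and name Ensembl genes, whose models were not used here. Peaks with the same limits and blocks in every list were few. They numbered 116 of 41507 distinct peaks (0.279%). In the 5' UTR they numbered 17 of 1869 (0.910%), a higher share. Set against the 6589 regions with a peak in all 4 lists, a different unit, the 116 came to 1.76%.

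Its fold was 194 and 160 in the Mettl5-/- lists and 174 and 229 in the wild-type lists, where the median 5' UTR peak had 12.8, 15.7, 13.0 and 15.3 in the same order. Its strength percentile was 93.4 and 89.4 in Mettl5-/- and 92.5 and 92.5 in wild type, so the wild-type values lay between the Mettl5-/- values. Among 5' UTR peaks alone it stood between the 93.5th and 97.1th percentile by strength and between the 98.4th and 98.9th by length.

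A 5' UTR peak in all 4 lists was found in 246 of 8566 protein-coding genes with a peak (2.87%), Ep300 among them and Crebbp not. Coding-sequence peaks in all 4 lists were found in 1863 of these genes (21.7%), both members included. Both kinds in every list were found in 47 genes (0.549%), again with Ep300 and without Crebbp.

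In the 3' UTR the listed peaks were weak. All 7 had folds from 4.81 to 11.2, lengths from 121 to 390 bp and adjusted p-values from 0.00245 to 0.0363 as the authors give them on a log10 scale. The strongest stood at the 22.8th percentile of its list. A 3' UTR peak in all 4 lists was found in 28.2% of protein-coding genes with a peak, and in neither Crebbp nor Ep300. By library the pair had 3 and 1 such peaks in Mettl5-/- and 1 and 2 in wild type.

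A Crebbp 3' UTR peak near the end of the transcript was listed in both Mettl5-/- libraries and in neither wild-type library. It covered positions 4081478 to 4081657 in Mettl5-/- 1 and 4081478 to 4081598 in Mettl5-/- 2, 144 bp from the RefSeq 3' end at its near edge. Its fold was 11.2 in Mettl5-/- 1 and 7.47 in Mettl5-/- 2, with adjusted p-values of 0.00347 and 0.0363. It ranked 9889 of 12699 and 10668 of 10821 by p-value. Regions listed in both Mettl5-/- libraries alone made up 2.51% of all regions (388), and those of both wild-type libraries alone 2.02% (313). Pairs that cross the genotypes gave between 274 and 563 regions, so 1 such region among 5 is no test of the genotype. Its mean percentile, 10.8, was below the lower quartile (13.6) of the 388 regions, whose median was 23.1. Without the weaker 50% of each list, or with an adjusted p-value under 0.001, it was no longer counted.

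A stretch of 480 bp beside the coding-sequence peak of Crebbp, positions 4083365 to 4083844, was listed differently in each library. Mettl5-/- 1 had a separate 3' UTR peak there (4083365 to 4083754, fold 4.81), set off by 59 bp from its coding-sequence peak, and Mettl5-/- 2 had no listed base. Wild type 1 covered all 480 bp as part of its coding-sequence peak, and wild type 2 had a separate 3' UTR peak (4083604 to 4083844, fold 7.40), also set off by 59 bp. In all, 421 and 0 bp of the stretch were listed in the Mettl5-/- libraries and 480 and 241 bp in the wild-type libraries. The number of Crebbp 3' UTR peaks, 2 and 1 in Mettl5-/- and 0 and 1 in wild type, therefore counted wild type 1 as lacking a peak where its longer peak covered the same bases.

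Ep300 had a 3' UTR peak in 3 lists and none in Mettl5-/- 2, the shortest list. It lay at positions 81651687 to 81651897 in Mettl5-/- 1, against 81651837 to 81651987 in wild type 1 and 81651867 to 81651987 in wild type 2. The fold was 8.81 in Mettl5-/- 1, and 8.68 and 10.4 in wild type. Its near edge was 90 to 180 bp from the RefSeq 3' end. Regions found in exactly 3 lists made up 14.2% of all regions.

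Counted together, the pair had 6 and 4 peaks in Mettl5-/- and 4 and 5 in wild type. The mean was 5 ± 1.41 in Mettl5-/- and 4.5 ± 0.707 in wild type (SD, n = 2 each), a difference of 0.5 peaks, smaller than the spread between the Mettl5-/- libraries (exact permutation test, two-sided, p = 1). Crebbp had 3 and 2 peaks in Mettl5-/- and 1 and 2 in wild type. Ep300 had 3 and 2 peaks in Mettl5-/- and 3 and 3 in wild type. Having 3 or more peaks was found in 11.4% of the genes of the Mettl5-/- 1 list, and in 10.9% and 10.2% of those of wild type 1 and 2.

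Listed bases varied less than peak number. They came to 3027 and 2339 bp for Crebbp in Mettl5-/-, against 2906 and 2489 bp in wild type. For Ep300 they were 4110 and 3869 bp in Mettl5-/- and 3930 and 4170 bp in wild type. For both genes the values of the genotypes overlapped. Of all bases listed in any library, 71.9% in Crebbp and 86.9% in Ep300 were listed in all 4, against 43.1% of the listed bases of all genes. The latter share covers peaks of every strength and length. No comparison was made with peaks as strong and long as those of the pair. Bases listed in both Mettl5-/- libraries alone numbered 121 in Crebbp (3.92%) and 0 in Ep300, against 2.48% over all genes. Bases of both wild-type libraries alone numbered 59 in Crebbp (1.91%) and 90 in Ep300 (2.07%), against 2.5% over all genes.

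Genes with the most similar profile were found by Euclidean distance over 8 numbers, the log2 of the peak number plus 1 and the best strength percentile over 100 in each of the 4 libraries. The 5 nearest to Crebbp were Eif4ebp2 (distance 0.0385), Bbx, Naa40, B3gnt7 and Pdgfc (0.269), and all had 3 and 2 peaks in Mettl5-/- and 1 and 2 in wild type. The 5 nearest to Ep300 were Zgrf1 (0.0265), Twnk, Pnn, Jun and Il6st (0.0440), each with 3 and 2 peaks in Mettl5-/- and 3 and 3 in wild type. Differences in peak number weigh heavily in this distance, so the shared peak numbers follow largely from the measure. Crebbp and Ep300 lay 1.08 apart, and their peak numbers in wild type made most of that distance.

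Other genes of protein acetylation were then counted. Of 16 further lysine acetyltransferase genes, 11 had a peak in some library, 7 of them in all 4 lists (63.6%, against 57.1% of all genes with a peak). None followed the genotype, that is, had a peak in both libraries of 1 genotype and in neither of the other. Over all genes with a peak, 2.27% did so for Mettl5-/- and 1.56% for wild type. Ncoa1, a nuclear receptor coactivator, had 4 and 2 peaks in Mettl5-/- and 3 and 4 in wild type. Ncoa3, of the same family, had 2 and 1 in Mettl5-/- and 2 and 2 in wild type. Kat6b, a histone H3 acetyltransferase, had 2 and 1 peaks in Mettl5-/- and 1 and 2 in wild type. Its best peak reached the 99.5th and 97.9th percentile in Mettl5-/- and the 38.5th and 98.1th in wild type, so wild type 1 alone was low. The best peak was taken over coding-sequence and 3' UTR peaks alike. Whether it lay at the same place in each library was not examined. The 99.5th is the value of entries tied at the top, which have no finite log10 p-value. Ncoa1 was the single gene of the 16 with a coding-sequence peak in all 4 lists, and none had a 5' UTR peak in all 4. Over protein-coding genes with a peak these shares were 21.7% and 2.87%.

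Lysine deacetylases remove the mark that this pair places. Of 18 genes 8 had a peak, 3 of them (37.5%, against 57.1% of all genes with a peak) in all 4 lists: Hdac3, Hdac6 and Sirt1. Hdac3, the deacetylase of the NCoR and SMRT corepressors, stood at the 54.2th and 52.4th strength percentile in Mettl5-/- and at the 67.4th and 59.1th in wild type. Sirt1 stood at the 99.5th and 99.1th in Mettl5-/- and at the 97.3th and 97.4th in wild type, the other way round. Its Mettl5-/- values are those of the entries tied at the top, which have no finite log10 p-value. Its folds, which rank peaks within 1 list only, were 317 and 119 in Mettl5-/- and 2090 and 571 in wild type. They were not turned into percentiles for Sirt1, so its order by fold was not tested. Hdac6, at the 54.4th and 44.8th in Mettl5-/- and the 61.2th and 35.4th in wild type, had groups that overlapped. Sirt4, a mitochondrial sirtuin, was listed in both Mettl5-/- libraries (folds 24.8 and 62.0) and in neither wild-type library, as were 2.27% of all genes with a peak. The reverse pattern, found in 1.56% of genes, had no member in any of the 4 lists of acetylation genes. Hdac4 had 2 and 1 peaks in Mettl5-/- and 1 and 0 in wild type, and Sirt7 had 2 and 1 in Mettl5-/- and 2 and 0 in wild type.

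Bromodomain proteins bind acetylated lysines. Of 25 such genes 21 had a peak, 12 of them in all 4 lists (57.1%, the same share as over all genes with a peak). None followed the genotype, against 2.27% (Mettl5-/- only) and 1.56% (wild type only) of all genes with a peak. Brd2, of the BET family, had 4 peaks in each library, Baz2a had 5 and 2 in Mettl5-/- and 4 and 2 in wild type, and Bptf, a subunit of the NURF remodeller, had 3 and 2 in Mettl5-/- and 2 and 3 in wild type. Brd2 and Trim24 had a 5' UTR peak in all 4 lists, as did 2.87% of protein-coding genes with a peak, Ep300 among them.

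Transcription factors and adaptors that recruit the pair made up a list of 34 genes, of which 23 had a peak. In all 4 lists 13 had one (56.5%, against 57.1% of all genes with a peak). None followed the genotype, against 2.27% (Mettl5-/- only) and 1.56% (wild type only) of all genes with a peak. The CREB gene Creb1, after whose product Crebbp is named, had no listed peak. Maml1, the Notch coactivator that binds p300, had 2 and 6 peaks in Mettl5-/- and 4 and 3 in wild type. Notch1 had 4 and 2 in Mettl5-/- and 2 and 2 in wild type, and Smad3, an effector of TGF-beta, had 2 and 3 in Mettl5-/- and 3 and 2 in wild type. Cited2, whose product binds the same domain of CREB-binding protein as Hif1a, had coding-sequence and 5' UTR peaks in all 4 lists. Both kinds in every list were found in 0.549% of protein-coding genes with a peak.

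**Figure D4:**
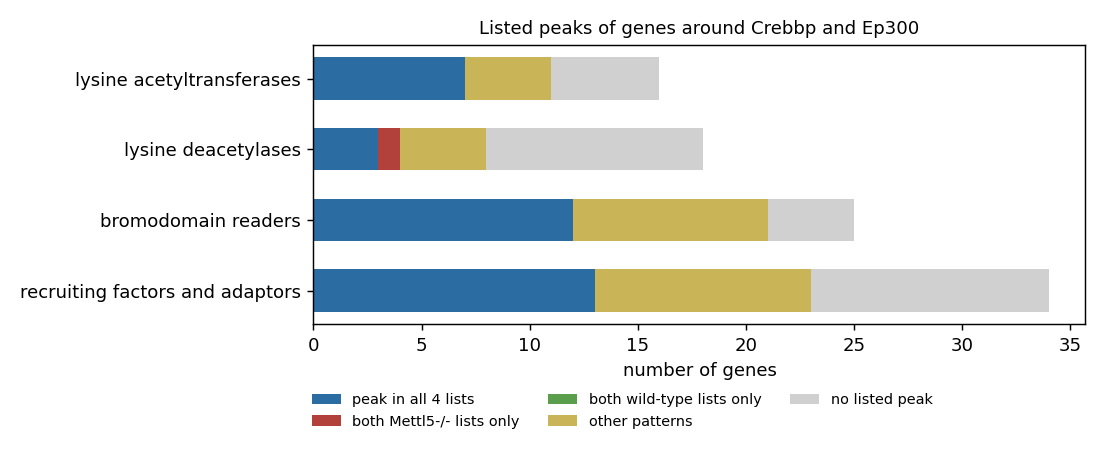
Number of genes (horizontal axis) in each of 4 lists around Crebbp and Ep300, split by the libraries in which a peak was listed; Mettl5-/- only and wild-type only mean both libraries of that genotype and neither of the other. Peaks in all 4 lists were found for 7, 3, 12 and 13 genes from the top row down, and 1 deacetylase gene was listed in the Mettl5-/- libraries alone.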

How the data were processed

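For each library the authors deposited a list of peaks. Per the file headers, a peak has exon blocks, a gene with its class of transcript, a p-value, a fold ratio, and log10 forms of the p-value and of an adjusted p-value, which served as a score for ranking. HISAT2, HOMER and the mm10 build are named, without a role, in the submitters' processing notes. The caller, its settings and the background of the fold were not stated in what was used here. The number of exon blocks was taken as deposited. Depth is unknown, so no interval on a peak was set.

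Peaks off the reference chromosomes (6, 3, 3 and 5 in Mettl5-/- 1 and 2 and wild type 1 and 2) were left out. Peaks that shared 1 bp or more of exon block, on either strand, formed a region. Strength was the rank of the p-value; entries without a finite log10 (139, 200, 152 and 192 in the same order) tie at the top, and no Crebbp or Ep300 peak is among them. No peak of another gene lay in either locus or within 5000 bp of it. Starts are printed counting from 1. Libraries were compared by value and by exact permutation. Gene positions and promoter windows are from RefSeq, GRCm38.p6, where both genes matched by symbol.

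Named genes were Crebbp, Ep300 and Mettl5, list members that followed the genotype, the 3 members of each list with most peaks, and the 5 nearest profiles; other genes were named after their values were seen. Members and lists were chosen with earlier results of these data known. Region joining was tested on simulated lists. Alternatives were other overlaps, spans, strand, thresholds, list length, ranking by fold and leaving out each library. Python 3.11.15, numpy 2.4.6, pandas 2.3.3 and matplotlib 3.10.9 were used.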

Additional observations from a re-analysis of the deposited data

How the results depend on the processing

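The 3 regions of Crebbp and Ep300 found in all lists remained 3 under 11 of 12 alternatives and were 4 without Mettl5-/- 2. The 1 region of both Mettl5-/- lists alone became 0 in the stronger 50% of each list and with an adjusted p-value under 0.001, a limit chosen after seeing the data; leaving out each library gave 1 to 1. The 0 regions of both wild-type lists alone became 1 with lists of equal length, which drop the weakest peaks, and 1 with a reciprocal overlap of 50%, which parts peaks of unequal length; leaving out each library gave 0 to 1, with 1 without Mettl5-/- 1. The difference in peak number, Mettl5-/- minus wild type, was 0.5 and ranged from -0.5 (without Mettl5-/- 1) to 1.5 (without Mettl5-/- 2). The best-peak percentile difference for Crebbp was -2.51 by fold, and -1.96 to 0.706 when each library was left out, positive without Mettl5-/- 2. For Ep300 it was 0.853 by fold, opposite in sign, and -2.37 to -0.505 when each library was left out. The cause was not tested. No paired analysis was possible because the wild-type titles give no replicate number, and numbers in accession order do not pair libraries. Depth is unknown, so peaks missed for lack of reads cannot be named.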

Other observations

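Related genes had a strong peak in 1 or 2 of the 4 lists. Kat6a, an acetyltransferase of the same broad class, had its 1 peak in wild type 1, in coding sequence on chromosome 8 (positions 22935640 to 22940949, mm10), at a fold of 743 and the 98.3th percentile of that list. Kat2a had a peak from position 100704746 of chromosome 11 in Mettl5-/- 2 (fold 166, 86.7th percentile) and in wild type 2 (fold 1040, 90.6th percentile), and none in the other 2 lists. Both genes were picked out after their values were seen.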
